A study of Mus musculus with 12 samples.

Results

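Myeloid progenitors of young mice with 1 floxed Wt1 allele (Mx+ Wt1 fl/+, called young het) were compared with those of young mice whose Wt1 alleles were intact (Mx+ Wt1+/+, called young control), gene by gene. The comparison takes in 6 of the 12 libraries of the study, 3 young het and 3 young control, and every gene that passed a filter on low counts, which was 10604 of 33924 genes in the table. The other 6 libraries are old het and old control, 3 each, of the same genotypes. The labels tie the word acute to every young library and chronic to every old one without explaining either, so age and that condition cannot be told apart, and they list no treatment. Both genotypes carry the Mx transgene. The labels do not spell it out, but in such crosses it drives Cre recombinase from an interferon-inducible promoter, which acts in blood cells and in other cells that respond to interferon. How far the floxed allele was recombined is not given. Cells were flushed from leg bones and sorted as live, lineage-negative, Sca1-negative and c-Kit-positive cells, a mixed gate that holds progenitors of granulocytes, monocytes, basophils, eosinophils, red cells and megakaryocytes. In such bulk RNA, fewer cells of a type and less RNA per cell cannot be told apart. The labels do not say whether the 3 libraries of a group came from separate animals, so the p-values measure the spread between these libraries, which may be technical.

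The product of Wt1 is a transcription factor with zinc fingers, needed for the kidney and gonads, which binds GC-rich DNA and can both activate and repress genes. In blood it is found in early progenitors, and a share of acute myeloid leukaemias carry mutations in it. The WT1 protein also binds TET2, an enzyme that oxidises 5-methylcytosine, and brings it to target genes. As progenitors commit to the granulocyte line, they first make the proteins of primary granules, such as myeloperoxidase, and later those of secondary granules, under the C/EBP family and the repressor Gfi1.

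Libraries differed in ways that ran along with the genotype. Total counts were 3113183, 6794892 and 5820076 in young hets 1 to 3, against 1600995, 645460 and 1365425 in young controls 1 to 3, so that 3 counts stand for 0.442 to 0.964 CPM (counts scaled to a library total of 1000000) in young hets and 1.87 to 4.65 CPM in young controls. Mitochondrial rRNA took 3.0 to 3.51% of counts in young hets and 4.35 to 8.22% in young controls, mitochondrial mRNA 0.853 to 2.07% in young hets and 3.07 to 5.58% in young controls. Small nuclear, nucleolar and other small non-coding RNA took 0.181 to 0.194% in young hets and 0.366 to 0.793% in young controls. Xist, made from the inactive X chromosome, lay at 617 to 2165.7 CPM in the 3 young hets and at 1577 CPM in young control 3, and all 4 of these libraries had 0 counts of the Y-linked Ddx3y. Young controls 1 and 2 had Xist at 3.05 and 1.64 CPM and 173 and 83 counts of Ddx3y. Young control 3 also stood apart on the first principal component of the 6 libraries, at 139 where the others lay between -45.4 and -18.1 (34.5% of the variance). The part that depth, mitochondrial share, sex or young control 3 plays in a gene's change was not tested, except where a value below bears on it.

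**Figure D1:**
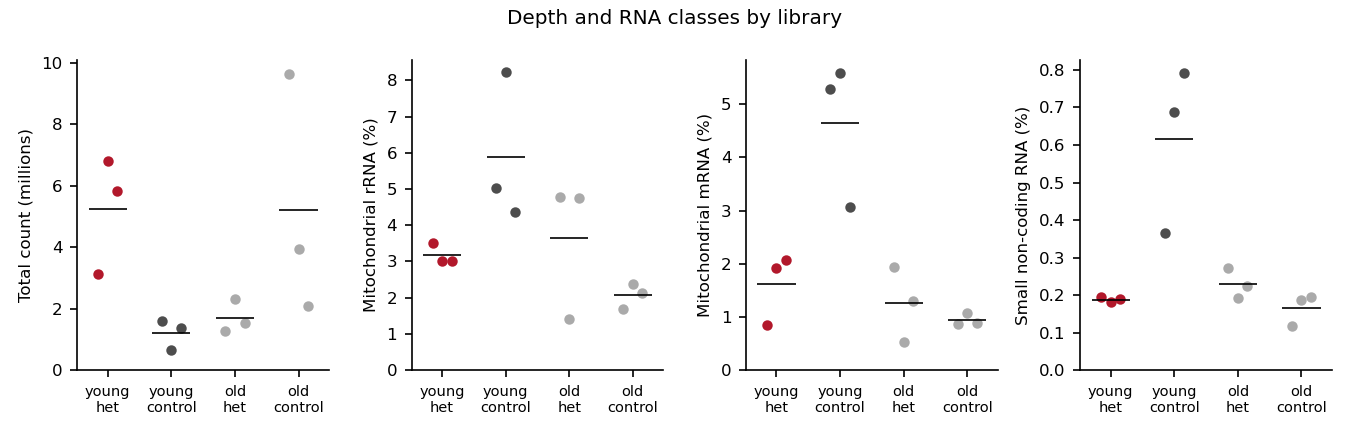
Total counts (in units of 1000000) and the shares of counts in mitochondrial rRNA, mitochondrial mRNA and small non-coding RNA (percent) on the vertical axes, with a point for each library, a line at the group mean and the groups on the horizontal axis. Every young het had a higher total and a lower share of each class than every young control.

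The gate's own markers were in place. Kit, the receptor that defines it, was at 96.5 to 291 CPM in the 6 libraries, and Ly6a, the Sca1 gene that it excludes, had 0 counts in all 6. The T cell genes Cd3e and Cd3g, the neutrophil surface gene Ly6g and the endothelial gene Cdh5 had 0 counts as well. Pecam1, another endothelial gene, was counted in all 6 libraries. The stromal Col1a1 was counted in every young het and had 0 counts in 2 young controls. Itgam, the CD11b chain carried by mature myeloid cells, was counted in every library (144 to 1247 CPM). Wt1 itself was below the filter, with 7, 4 and 23 counts in young hets and 8, 4 and 6 in young controls, or 2.32 ± 1.68 and 5.75 ± 1.04 CPM (SD, n = 3 each). Tags from the 3′ end lie outside a deleted exon or inside it depending on the allele, which the labels do not describe, so these counts do not check the genotypes.

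By edgeR's quasi-likelihood test, 45 of the 10604 genes passed an adjusted p of 0.05 (0.424%), of which 19 rose (0.179%) and 26 fell (0.245%) in young het. With upper-quartile scaling the count was again 45, of which 12 rose and 33 fell. Before adjustment 1488 genes had a p under 0.05, 815 of them higher. The median log2 change over all tested genes was 0.08, and 54.2% of genes were above 0. Of the 19 genes that rose, 18 had ordinary gene symbols and 1 was a clone-type model (2410016O06Rik). Among the 26 that fell were 13 ordinary genes, 1 clone-type model (3830406C13Rik), 4 mitochondrial tRNAs, 4 small nucleolar RNAs and 4 Y-linked genes. In 40 of the 45 no young het overlapped a young control, as was the case for 16.8% of the genes tested (9.72% higher and 7.12% lower).

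The count hung on single libraries. Without young hets 1, 2 and 3 it was 13, 3 and 1, and without young controls 1, 2 and 3 it was 17, 1 and 157. U3 alone passed in all 6 of these fits, mt-Tp passed in 4, and Cebpd, Cnot3, mt-Tq and Slbp in 3. A further 7 genes passed in 2 fits, 27 in 1 and 5 in none (Gfi1, Cst7, Dap, Mtus1 and 2410016O06Rik). Each of the 45 kept the sign of its change in the 6 fits. This adds little, since in 40 of them the groups lay apart, so leaving out 1 library could hardly turn the sign.

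**Figure D2:**
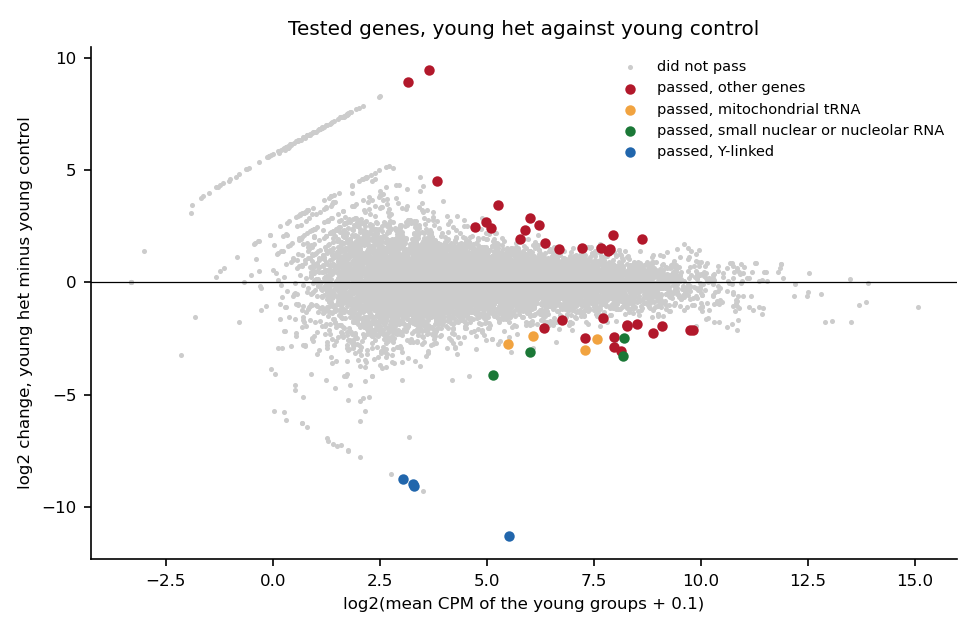
Log2 change of young het minus young control (vertical axis) against log2 mean CPM of the young groups (horizontal axis) for the 10604 tested genes, with the 45 that passed coloured by class. Genes that fell include the coloured small RNA, mitochondrial tRNA and Y-linked points, while ordinary genes lie on both sides of 0.

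Of the factors that steer the granulocyte line, Cebpd and Gfi1 rose. Cebpd encodes a C/EBP family factor of myeloid maturation. It was at 19.5, 31.1 and 24.5 CPM in young hets (58, 207 and 144 counts), against 0 counts in each young control. With a floor of 3 counts over the control group, it was at least 26.8-fold higher (adjusted p = 0.0118). Thinned to the depth of the shallowest library, the young hets still had 11, 21 and 8 counts and the young controls 0. Gfi1, the zinc finger repressor that neutrophil differentiation needs, was at 87.4, 116 and 140.0 CPM in young hets, against 24.3, 3.40 and 16.8 CPM in young controls. The groups lay apart, with a log2 change of 2.85 (SE 0.62, adjusted p = 0.0477). That adjusted p was between 0.0527 and 0.175 with any single young library left out.

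Cst7, Hdc and Rnase12 also rose. Cst7 encodes cystatin F, an inhibitor of the lysosomal proteases that activate serine proteases in granules. Its level was 65.2, 57.4 and 42.6 CPM in young hets, against 11.4, 3.40 and 9.17 CPM in young controls (log2 change 2.68, SE 0.59, adjusted p = 0.0493). Hdc, the decarboxylase that makes histamine from histidine in basophils, mast cells and myeloid progenitors, was at 579, 626 and 667 CPM in young hets and at 177, 88.4 and 219 CPM in young controls. Its mean was 624 ± 44.3 CPM in young het and 162 ± 66.8 CPM in young control (SD, n = 3 each; log2 change 1.94, SE 0.38, adjusted p = 0.0385). Rnase12, a ribonuclease A family member, had 14.8, 18.6 and 19.3 CPM in young hets and 0 counts in every young control, at least 18.8-fold higher (adjusted p = 0.0459). All 3 genes had groups that did not overlap. Of all tested genes, 101 had 0 counts in every young control and 25 had 0 counts in every young het.

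Signalling and adhesion genes among the higher ones were Anxa2, Nod1, Il21r, Skap2 and Coro1a. Anxa2, the calcium-dependent membrane binding protein annexin A2, was at 407, 417 and 368 CPM in young hets, against 79.0, 73.1 and 126 CPM in young controls (log2 change 2.09, SE 0.36, adjusted p = 0.0136). Nod1, which senses peptidoglycan fragments of bacteria in the cytosol, had 75.9, 68.9 and 62.6 CPM in young hets and 6.83, 15.3 and 0 CPM in young controls (log2 change 3.42, SE 0.71, adjusted p = 0.0459). Il21r, the receptor chain for interleukin 21, had 60.1, 53.9 and 59.8 CPM in young hets and 12.9, 1.70 and 15.3 CPM in young controls (log2 change 2.42, SE 0.52). In all 3 genes every young het lay above every young control. Skap2, an adaptor of integrin signalling in leukocytes, averaged 99.5 ± 25.5 CPM in young het and 19.3 ± 5.44 CPM in young control (SD, n = 3 each; log2 change 2.33). Coro1a, which binds actin in leukocytes, averaged 350.0 ± 95.9 CPM in young het and 123 ± 42.3 CPM in young control (log2 change 1.5).

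Metabolic and other cell genes made up the rest of the higher side. Idh1, the cytosolic isocitrate dehydrogenase that supplies NADPH and 2-oxoglutarate, was at 112, 171 and 100.1 CPM in young hets, against 14.4, 25.5 and 26.0 CPM in young controls (log2 change 2.56, SE 0.50, adjusted p = 0.0385). Ext2, a subunit of the heparan sulfate polymerase, was at 40.3, 46.2 and 47.9 CPM in young hets and at 6.07, 8.50 and 9.94 CPM in young controls (log2 change 2.46, SE 0.49, adjusted p = 0.0394). In both genes the groups lay apart. Maea, a ubiquitin ligase component also known for its part in erythroblast islands, rose with a log2 change of 1.74. Tmem93, now named Emc6, a subunit of the complex that inserts proteins into the ER membrane, averaged 301 ± 19.97 CPM in young het and 105 ± 5.51 CPM in young control (SD, n = 3 each; log2 change 1.52, SE 0.29, adjusted p = 0.0320). Its spread within groups was small on both sides. Tnpo1, an importin of the transportin type, was at 1.49, Dap, named for death-associated protein, at 1.53 and Mtus1, a microtubule-associated protein, at 1.95 on the log2 scale. Deb1, now named Ss18l2, was at 19.5, 22.8 and 40.4 CPM in young hets and at 3.04, 0 and 0 CPM in young controls. With control counts of 4, 0 and 0 its size rests on few reads.

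**Figure D3:**
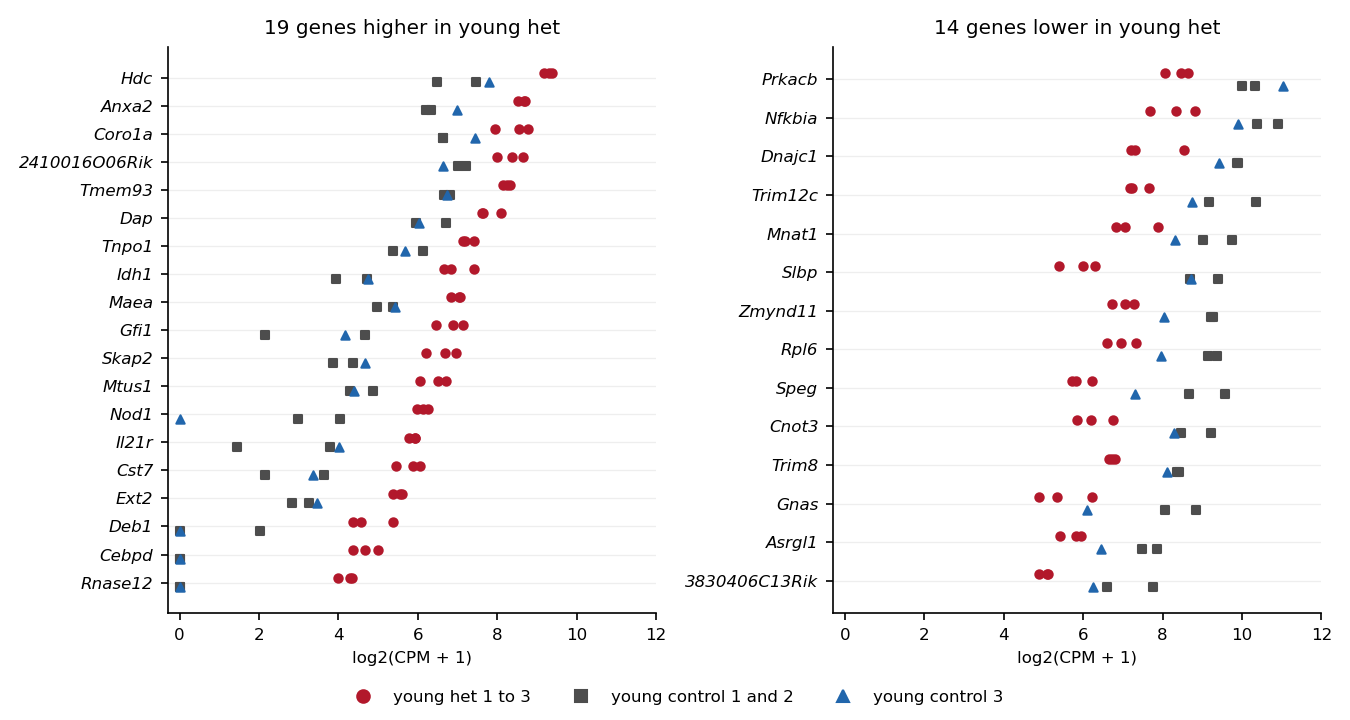
Levels of the 19 genes that rose and of 14 that fell, as log2(CPM + 1) on the horizontal axis. The mitochondrial tRNAs, small nucleolar RNAs and Y-linked genes that fell are not drawn. Each young het has a circle, young controls 1 and 2 have a square and young control 3 has a triangle. In the higher genes the circles lie to the right of the squares and the triangle. Among the lower genes, the triangle of Gnas lies within the range of its circles.

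On the lower side, Slbp and Cnot3 had the smallest adjusted p-values of the protein-coding genes. Slbp encodes the protein that binds the stem-loop of histone mRNA and is made in S phase. It was at 78.3, 40.8 and 62.6 CPM in young hets, against 410.0, 673 and 419.6 CPM in young controls, and its level fell by 3.05 log2 units (SE 0.46, adjusted p = 0.00538). Cnot3, a subunit of the CCR4-NOT complex that shortens poly(A) tails, was at 107, 71.9 and 56.1 CPM in young hets and at 354, 597 and 309.5 CPM in young controls. It fell by 2.42 (SE 0.39, adjusted p = 0.0107). In both genes the highest young het was below the lowest young control. Mnat1, the assembly factor of the CDK-activating kinase, averaged 160 ± 65.2 CPM in young het and 567 ± 278 CPM in young control (SD, n = 3 each) and fell by 1.83. Rpl6, a large-subunit ribosomal protein whose mRNA has processed pseudogenes that can share reads, had 159, 96.7 and 123 CPM in young hets and 562, 656 and 247 CPM in young controls (fell by 1.95, SE 0.39, adjusted p = 0.0394).

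Among signalling genes Prkacb, Gnas, Nfkbia, Trim8 and Trim12c fell. Prkacb, one of the genes for the catalytic subunit of protein kinase A, had 395, 353 and 265 CPM in young hets, against 1030.3, 1290.2 and 2104 CPM in young controls (fell by 2.13, SE 0.39, adjusted p = 0.0287). Gnas encodes the G protein alpha subunit that activates adenylyl cyclase. It was at 28.6, 39.8 and 73.3 CPM in young hets and at 461, 267 and 68.0 CPM in young controls, so that young control 3 lay inside the het range (fell by 2.48, SE 0.54, adjusted p = 0.0493). Gnas shares its locus with an antisense transcript, and the strand used in counting is not given. Nfkbia, the inhibitor that holds NF-kB in the cytosol and is itself an NF-kB target, was at 449.6, 326 and 203 CPM in young hets, against 1333, 1917 and 961 CPM in young controls (fell by 2.11, SE 0.39, adjusted p = 0.0288). Trim8, a ubiquitin ligase tied to cytokine signalling, averaged 104 ± 5.67 CPM in young het and 315 ± 32.8 CPM in young control (SD, n = 3 each; fell by 1.59). Trim12c fell by 2.23, and it belongs to a cluster of near-identical Trim genes whose reads can be split between copies.

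A remaining group of ordinary genes that fell had varied roles. Zmynd11, a reader of methylated histone H3.3, was at 132, 156 and 104 CPM in young hets and at 591, 619 and 261 CPM in young controls (fell by 1.91, SE 0.35, adjusted p = 0.0288). Dnajc1, a DnaJ-type cochaperone of the ER membrane, fell by 1.93. Asrgl1, an asparaginase-like enzyme, fell by 1.65. Speg, a gene for striated muscle kinases, had 55.1, 73.1 and 52.0 CPM in young hets, against 765, 405 and 157 CPM in young controls (fell by 2.88, SE 0.64, adjusted p = 0.0493). Of the 14 genes that fell and are neither small or mitochondrial RNAs nor sex-linked, young control 3 was the lowest young control in 12, all but Slbp and Prkacb.

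Small nucleolar RNAs held the smallest p-value. U3, which guides the first cleavages of the ribosomal RNA precursor, was at 90.4, 36.5 and 37.0 CPM in young hets, against 446, 583 and 554 CPM in young controls. The level fell by 3.28 log2 units (SE 0.41, adjusted p = 0.00128), and the change stayed between -3.85 and -3.05 with any single young library left out. Snord49b, a box C/D RNA that guides 2′-O-methylation of rRNA, had 129, 68.5 and 70.6 CPM in young hets and 512, 731 and 249.9 CPM in young controls (fell by 2.48). SNORA36 fell by 3.10, and SNORD86 by 4.11, with 1.34, 4.35 and 5.46 CPM in young hets and 83.5, 83.3 and 32.1 CPM in young controls. Of 473 small nuclear, nucleolar and other small non-coding RNA symbols in the table, 60 were tested, 4 fell and none rose. Their median log2 change was -1.53, and 31 had young hets below all young controls, beside 7.12% of all tested genes. The spliceosomal U1, at 544, 796 and 862 CPM in young hets and 1539.8, 2548 and 3829 CPM in young controls, did not pass (log2 change -1.85, adjusted p = 0.0541). Symbols such as U3 and U1 stand for families of near-identical copies. Kits of this type prime on poly(A), which these RNAs mostly lack, and whether their counts follow their levels was not tested.

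RNA of the mitochondrial genome moved the same way. All 11 tested mitochondrial tRNAs were below 0 (median -2.75) and 4 of them fell. These were mt-Tp, mt-Tq, mt-Tn and mt-Tm, the tRNAs for proline, glutamine, asparagine and methionine. The first of them, mt-Tp, was at 48.0, 65.8 and 54.0 CPM in young hets and at 308, 440.2 and 229 CPM in young controls (fell by 2.53, SE 0.37, adjusted p = 0.00538). The glutamine tRNA mt-Tq had 18.1, 52.7 and 31.7 CPM in young hets, against 285, 365 and 184 CPM in young controls (fell by 3.01, SE 0.50, adjusted p = 0.0126). The kit primes on poly(A), and the strand used in counting is not given. Whether the counts of these tRNAs follow their levels was not tested. None of the 10 tested mitochondrial rRNAs and mRNAs passed, with a median of -1.67 and all 10 below 0. Of these mRNAs, mt-Nd6, a complex I subunit, was at 491, 733 and 861 CPM in young hets and at 3745, 3932 and 1282 CPM in young controls (log2 change -2.10, adjusted p = 0.0764). The cytochrome oxidase subunit mt-Co1 was at 351, 630.0 and 638 CPM in young hets and at 1782, 2356 and 913 CPM in young controls (-1.64, adjusted p = 0.0806). Of 74 nuclear genes of oxidative phosphorylation none passed, 44 were above 0 and the median was 0.14. When the share of mitochondrial rRNA entered the fit as a covariate, the median of the mitochondrial rRNAs and mRNAs was -0.56 and that of the tRNAs -1.75. The covariate is made from rRNAs that the first of these lists holds, so the shift of its median is partly built in. In that fit U3 was the only gene of the 10604 that passed, and the log2 change of U3 was -2.94 (adjusted p = 0.0426).

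The 4 Y-linked genes, Ddx3y, Uty, Kdm5d and Eif2s3y, were not counted in any young het, nor in young control 3. In young controls 1 and 2 they were at 131 and 141 CPM for Ddx3y, 26.6 and 30.6 CPM for Uty, 32.6 and 25.5 CPM for Kdm5d, and 21.3 and 27.2 CPM for Eif2s3y. Against the mean of the 3 controls the young hets were at least 469-fold lower for Ddx3y, 98.5-fold for Uty, 100.2-fold for Kdm5d and 83.5-fold for Eif2s3y, with the floor at 3 counts over the het group. The list of 5 sex-linked genes, which holds Xist as well, had a median of -8.99. The adjusted p-values of the 4 Y-linked genes lay between 0.0288 and 0.0460, and Xist did not pass. With Xist as a covariate 23 genes passed, 12 higher and 11 lower, and 11 of them were among the 45.

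Because WT1 binds GC-rich DNA, the promoter windows of the genes that passed are of interest, and 4 stretches are shown, for Slbp and Cnot3 (fell) and for Gfi1 and Hdc (rose). Each is the 120 bases before the RefSeq transcription start, read on the gene's strand, in build GRCm38.p6 (the counts were made on mm9, and no coordinate was joined between them). Capitals mark GGGCGG, the GC box. Coordinates are chr5:33652575-33652694 (minus strand) for Slbp, chr7:3645149-3645268 (plus strand) for Cnot3, chr5:107725806-107725925 (minus strand) for Gfi1 and chr2:126618679-126618798 (minus strand) for Hdc. The 4 genes were chosen after their values and windows were seen.
Slbp: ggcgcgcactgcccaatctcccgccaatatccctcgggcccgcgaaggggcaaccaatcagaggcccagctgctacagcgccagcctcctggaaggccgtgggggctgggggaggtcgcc
Cnot3: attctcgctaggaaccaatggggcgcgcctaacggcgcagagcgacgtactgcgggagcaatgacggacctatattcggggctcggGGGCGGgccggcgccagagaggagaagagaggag
Gfi1: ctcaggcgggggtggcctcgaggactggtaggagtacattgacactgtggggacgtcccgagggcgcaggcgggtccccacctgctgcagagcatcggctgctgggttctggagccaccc
Hdc: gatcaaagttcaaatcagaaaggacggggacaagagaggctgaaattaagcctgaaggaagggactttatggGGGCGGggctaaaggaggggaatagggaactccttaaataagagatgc
A GC box on either strand, in the window of 250 bases before to 50 bases after the start, was present in 21 of the 33 protein-coding genes that passed and had a window (63.6%), 12 of 16 that rose and 9 of 17 that fell. Among all 8046 tested protein-coding genes with a window it was present in 70.2%, and in 49.2% of all 17492 such windows. The sequence GCGTGGGNG, a published form of the WT1 and EGR motif, was searched on both strands in the same window. It was in none of the 33, and in 4.01% of tested genes. These are matches of letters in a window and say nothing of binding.

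Primary granule genes stood mostly above 0. Of 25 listed genes 23 were tested, 1 rose (Cst7), none fell, 21 were above 0 and the median was 0.81, beside 0.08 over all tested genes. In 14 of the 23 every young het lay above every young control, beside 9.72% of all tested genes. Summed over the list, levels were 16817 to 18983 CPM in young hets and 7017 to 14472 CPM in young controls, the highest of them in young control 3. Prtn3, the serine protease proteinase 3, was at 1254, 1487 and 982 CPM in young hets and at 329, 294 and 649.6 CPM in young controls (log2 change 1.55, adjusted p = 0.133). Elane, neutrophil elastase, was at 527, 347 and 318 CPM in young hets, against 119.97, 117 and 266 CPM in young controls (1.24, adjusted p = 0.249). The groups lay apart in both genes, and neither passed. Cd63, a granule membrane tetraspanin, was at 1.5 and Clec12a, a myeloid lectin, at 1.37 (adjusted p = 0.175 and 0.115). Ctsg, the protease cathepsin G, lay on the other side, at 453, 367 and 336 CPM in young hets and 446, 552 and 537 CPM in young controls (-0.41, adjusted p = 0.663). When the share of mitochondrial rRNA entered the fit, the list median was 0.48.

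Later granulocyte genes and lineage factors follow. In the secondary granule list none of 21 tested genes passed, 13 were above 0 and the median was 0.17. In 2 of them, Ncf1 at 0.83 and Cyba at 0.93, every young het lay above every young control, beside 9.72% of all tested genes. Ngp at 0.74 and S100a8 at 0.67 had groups that overlapped. So did Itgam at -1.41 and Camp at -0.59, which lay the other way. Camp, an antimicrobial peptide of those granules, was at 1407, 2797 and 1284 CPM in young hets and 2263, 4190 and 1808 CPM in young controls. Among 31 myeloid transcription factors, Cebpd and Gfi1 rose, none fell and the median was 0.09, which turned to -0.01 with upper-quartile scaling. Cebpa, the C/EBP factor that opens the granulocyte and monocyte programme, was at 155, 96.4 and 81.3 CPM in young hets, against 35.7, 28.9 and 38.2 CPM in young controls (1.68, adjusted p = 0.133). Id2, an inhibitor of basic helix-loop-helix factors, was at 69.6, 35.3 and 21.3 CPM in young hets and 97.2, 216 and 113 CPM in young controls (-1.75, adjusted p = 0.0969). Irf8, the factor of the monocyte and dendritic line, had groups that overlapped (152 to 444 CPM in young hets and 159 to 339 CPM in young controls).

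No listed gene of the erythroid (36 tested, median -0.13), megakaryocyte (21, median 0.42), stem and multipotent progenitor (27, median 0.10, or -0.01 with upper-quartile scaling), monocyte (20, median -0.02), dendritic cell and MHC class II (15, median 0.30) or lymphoid lists (12, median -0.70) passed. Gata1, the erythroid and megakaryocyte factor, was at 88.7, 93.1 and 199.97 CPM in young hets and at 98.7, 149.6 and 94.0 CPM in young controls. The groups overlapped, as they did for Klf1, Itga2b and Pf4. F13a1, the coagulation factor XIII subunit of monocytes, was at 589, 371 and 434 CPM in young hets, against 1009.8, 1003 and 1250.3 CPM in young controls (-1.23, adjusted p = 0.196). Ly86, the MD-1 protein of myeloid and B cells, was at 5.04, 10.7 and 16.5 CPM in young hets and 79.0, 105 and 19.1 CPM in young controls (-2.62, adjusted p = 0.0869).

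Several basophil and eosinophil genes were higher in young control 3 than in the other young controls. Of 19 tested basophil and mast cell genes, Hdc rose, none fell, 12 were above 0 and the median was 0.25. Il1rl1 at -0.73 and Osm at -2.15 were among those below 0, with groups that overlapped. Prss34, a basophil protease, was at 10.1, 51.8 and 25.9 CPM in young hets and 0.759, 0 and 5.35 CPM in young controls (3.64, adjusted p = 0.0701). Mcpt8, another basophil protease, was at 113, 227 and 240.0 CPM in young hets and 121, 52.7 and 272 CPM in young controls. All 9 tested eosinophil genes were above 0, with a median of 0.65, and Rnase12 was the member that rose. Prg2, the eosinophil major basic protein, was at 1535, 1493 and 2031 CPM in young hets, at 164 and 104 CPM in young controls 1 and 2 and at 2785 CPM in young control 3. Epx, eosinophil peroxidase, was at 74.6, 51.3 and 191 CPM in young hets, at 12.1 and 5.10 CPM in young controls 1 and 2 and at 111 CPM in young control 3. Young control 3 thus lay above every het in Prg2 and inside the het range in Epx. The summed list was at 2044 to 3008 CPM in young hets, 511 and 437 CPM in young controls 1 and 2 and 3445 CPM in young control 3, and its median without that library was 3.14.

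**Figure D4:**
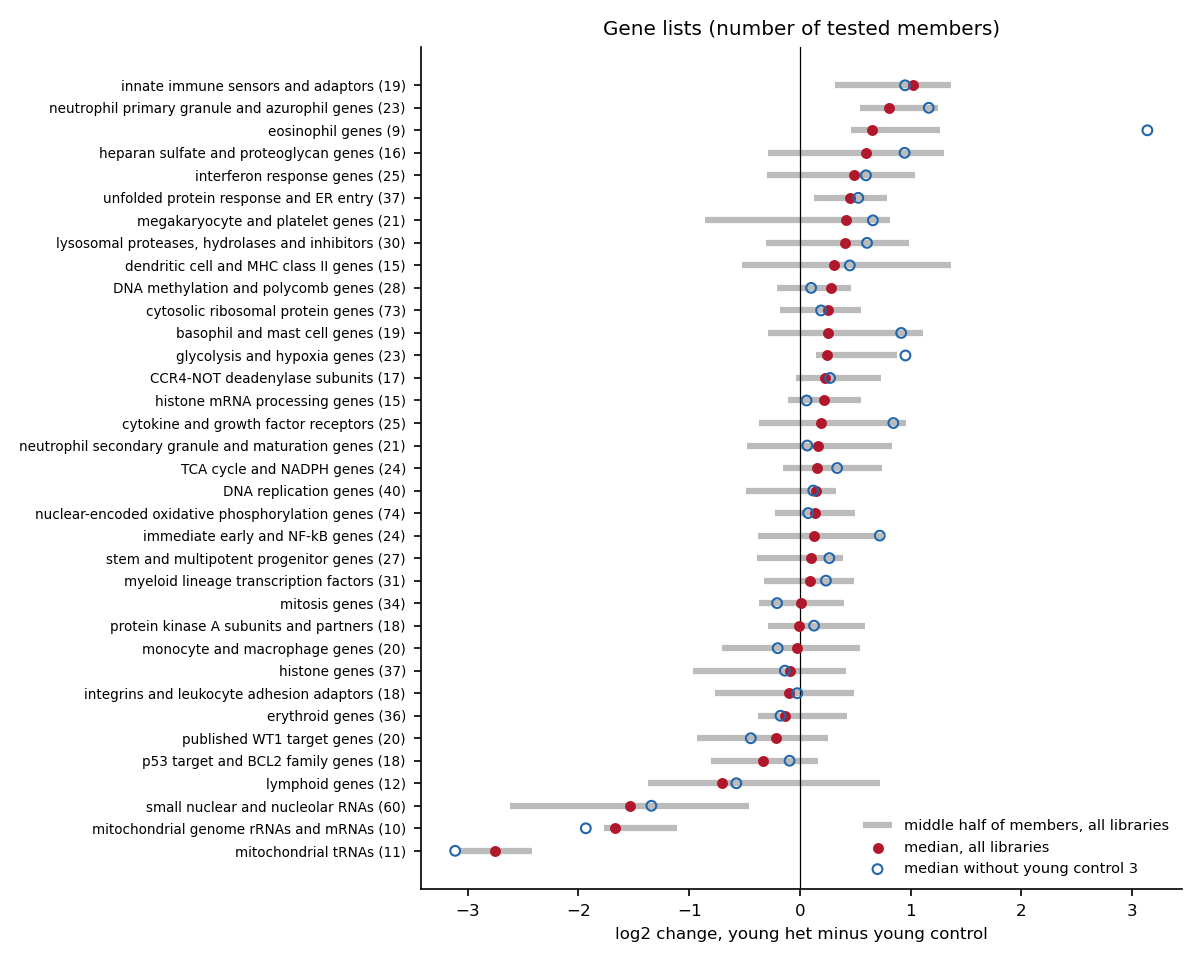
Median log2 change of young het minus young control (horizontal axis) for the gene lists with at least 9 tested members, with a bar from the lower to the upper quartile of members and an open circle for the median without young control 3. Mitochondrial tRNA and small RNA lists lie below 0 in both fits, and the eosinophil list is at 0.65 with all libraries and at 3.14 without young control 3.

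Organelle and stress genes gave few calls. In the unfolded protein response and ER entry list none of 37 tested genes passed, 30 were above 0 and the median was 0.46. In 10 of the 37 the young hets lay above all young controls, beside 9.72% of all tested genes. Ssr3, a subunit of the translocon-associated complex, was at 332, 409 and 335 CPM in young hets and at 94.1, 114 and 210.2 CPM in young controls (1.36, adjusted p = 0.104). Herpud1, an ER stress gene of protein degradation, was at 279.9, 191 and 307 CPM in young hets, against 42.5, 54.4 and 162 CPM in young controls (1.57, adjusted p = 0.115). Hsp90b1, the ER chaperone GRP94, lay the other way at -1.14 (adjusted p = 0.273). Among 30 lysosomal genes Cst7 rose, with a list median of 0.41, and Laptm5, a lysosomal membrane protein of blood cells, was at 1.13 (adjusted p = 0.133). Of 19 innate sensors and adaptors Nod1 rose, with a median of 1.02. None of 25 interferon response genes passed (median 0.49). Among 24 immediate early and NF-kB genes Nfkbia fell and the median was 0.13, and none of 18 p53 target and BCL2 family genes passed (median -0.34).

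Partners of single genes that passed were also measured. Cnot3 was the sole member of 17 CCR4-NOT genes that passed, and the median of the list was 0.22. The scaffold subunit Cnot1 was at 329, 279 and 196 CPM in young hets and at 121, 104 and 89.4 CPM in young controls, which is the opposite direction to Cnot3, without passing (1.35, SE 0.31, adjusted p = 0.0541). Prkacb fell among 18 protein kinase A genes with a median of -0.01, and Prkar1a, its regulatory subunit, was at 0.65 (adjusted p = 0.323). Slbp fell among 15 genes of histone mRNA processing (median 0.22), none of 37 histone genes passed (median -0.09), and among 40 DNA replication genes Slbp was again the member that fell (median 0.14). None of 34 mitosis genes passed. Rpl6 was the member of 73 cytosolic ribosomal protein genes that fell, while 46 of them were above 0 (median 0.26). Idh1 rose among 24 genes of the TCA cycle and NADPH supply (median 0.15), and its mitochondrial relative Idh2 was at 143, 193 and 213 CPM in young hets and 112, 93.5 and 110.0 CPM in young controls (0.80, adjusted p = 0.235). Idh1 was also the sole member of 28 DNA methylation and polycomb genes to pass (median 0.28). Ext2 rose among 16 heparan sulfate genes (median 0.59), Skap2 among 18 integrin and adhesion genes (median -0.10) and Il21r among 25 cytokine receptors (median 0.19). None of 23 glycolysis and hypoxia genes passed (median 0.25).

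Of 30 genes published as WT1 targets 20 were tested, Gfi1 rose, none fell and the median was -0.21, beside 0.08 over all tested genes. Cdh1, E-cadherin, was at 57.1, 79.1 and 32.2 CPM in young hets and at 4.56, 27.2 and 14.5 CPM in young controls (1.95, adjusted p = 0.148). Zfpm1, the GATA cofactor FOG1, was at 240.2, 106 and 146 CPM in young hets and 522, 493 and 280.5 CPM in young controls (-1.40, adjusted p = 0.155). Podxl, podocalyxin of the kidney podocyte and of early blood progenitors, was at 0, 4.65 and 0 CPM in young hets, at 52.4 and 51.0 CPM in young controls 1 and 2 and at 0 in young control 3 (-4.35, adjusted p = 0.202). These genes thus lay on both sides.

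With young control 3 left out, 157 of 11290 tested genes passed (1.39%), 75 higher (0.664%) and 82 lower (0.726%), and 39 of the 45 were among them. Ordinary genes made up 72 of the higher and 59 of the lower ones. Prg2 was then at a log2 change of 3.64 (adjusted p = 0.00582). Vcam1, an adhesion molecule of marrow stroma and macrophages, was at 288, 400.4 and 234 CPM in young hets, 22.02 and 28.9 CPM in young controls 1 and 2 and 225 CPM in young control 3, with a change of 3.62 without that library (adjusted p = 0.00285) and 1.71 with it (adjusted p = 0.199). Vcam1 is a member of the stroma and endothelium list, of which 5 genes were tested and none passed with all libraries (median 1.71). That list summed to 288 to 436 CPM in young hets, 44.0 and 64.6 CPM in young controls 1 and 2 and 261 CPM in young control 3. Its other tested members were Kdr at 6.54, Pdgfrb at 2.08, Tek at -0.39 and Pecam1 at -0.02 with all libraries. In each the groups overlapped. Col1a1 was counted in every young het and had 0 counts in 2 young controls. Cxcl12 had 0 counts in 1 young het and in all 3 young controls. The endothelial Cdh5 was at 0 in all 6. Without young control 3, Klf4, a monocyte factor, had 3.11 (adjusted p = 0.0280), Prss34 had 5.76 (adjusted p = 0.0210) and Herpud1 had 2.44 (adjusted p = 0.00732). Each of these was nearer the hets in young control 3 than in the other controls. Among those that fell were Ly86 at -3.06 (adjusted p = 0.0244) and Gnas at -2.94 (adjusted p = 0.00506), together with Speg, Slbp, U3 and the 4 mitochondrial tRNAs. In this fit 4 mitochondrial mRNAs passed as well, mt-Nd6, mt-Co1, mt-Nd4 and mt-Nd1. Young controls 1 and 2 are also the libraries that carry Y-linked RNA, so young control 3, sex and genotype cannot be told apart there.

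**Figure D5:**
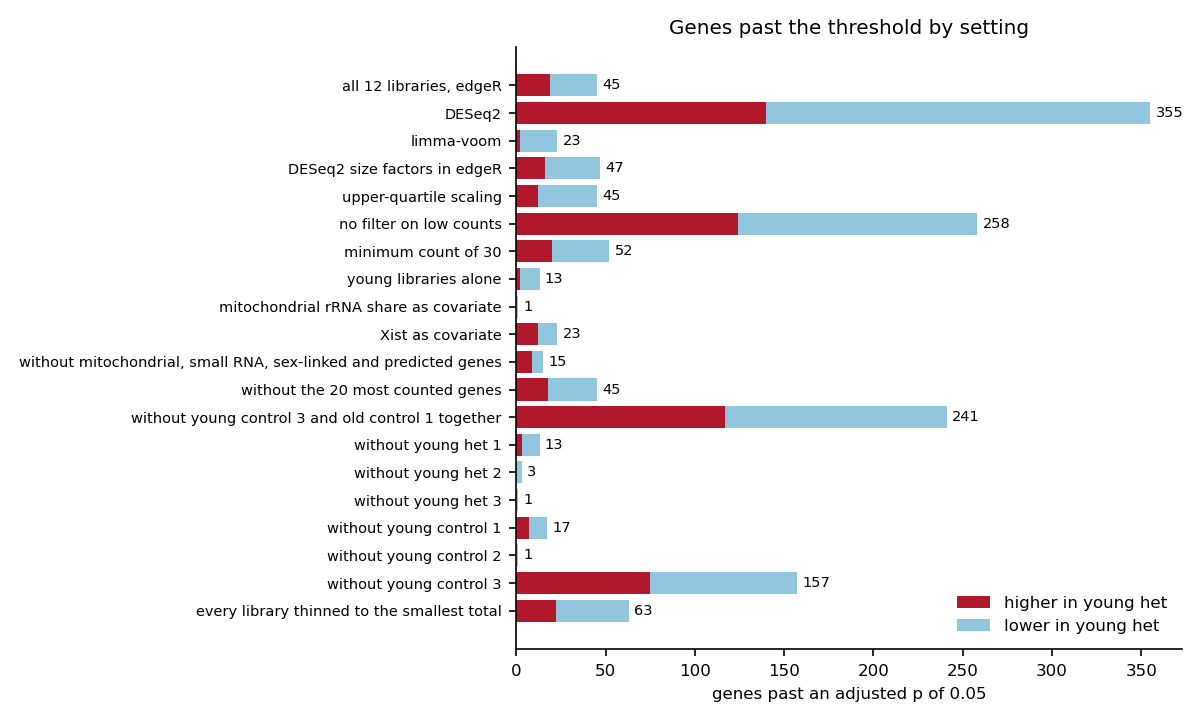
Number of genes past an adjusted p of 0.05 (horizontal axis) under each setting, divided into genes higher and genes lower in young het. It was 45 with all 12 libraries in edgeR, between 1 and 157 with a single young library left out, and 355 by DESeq2.

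The same contrast in old mice gave 0 of 10604 genes past the threshold (0.00%), with 380 at an unadjusted p under 0.05. Over all tested genes 42.5% had the same sign at both ages, and so did 10 of the 45 genes, 5 of the 19 that rose. A test of the difference between the ages passed in 9 genes (0.0849%), 8 of which were among the 45. Slbp was at 115, 27.7 and 113 CPM in old hets and at 19.96, 32.3 and 30.1 CPM in old controls, so that its level in young hets lay within the range of the old groups and its level in young controls above it. Cebpd was counted in both old groups, at 7.28, 26.9 and 7.88 CPM in old hets and 16.9, 36.3 and 20.8 CPM in old controls. U3 was at 89.0, 65.7 and 99.8 CPM in old hets and 35.0, 46.7 and 79.2 CPM in old controls. In these 3 genes every young het lay inside the range of the 6 old libraries and every young control outside it. That was so in 18 of the 45 genes, 8 that rose and 10 that fell, and the reverse, with the controls inside and the hets outside, in 0 of the 45. Over all tested genes the first was found in 3.02% and the reverse in 0.773%. The 45 were selected for a difference between the young groups, which itself favours such a split, so these shares are not a like comparison. Over all tested genes every young het lay inside the old range in 28.8% and every young control in 18.5%. The young controls also had the lower totals, and the part of depth was not tested. The count of genes by position in the old range was chosen after the values were seen.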

How the data were processed

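Sorted progenitors of 12 mouse libraries were sequenced with a Lexogen 3′ mRNA-seq kit, per the labels' protocols. The deposited values are raw counts per gene symbol in 1 table made by the authors. The submitters' processing notes name STAR 2.4, HTSeq 0.6.1, DESeq2 and build mm9 without role or order. The sources used here do not give the annotation, the strand setting or any molecular identifiers. Overlapping and near-identical genes therefore cannot be told apart, and floors cover counting error only.

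Groups follow the labels, with 3 libraries each. The replicate numbers only name libraries: young hets 1 to 3 carry 19, 20 and 21 in their names, and young controls 1 to 3 carry 29, 30 and 18. No 2 libraries of the same young group agreed within sampling noise in a chi-square test of counts.

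Genes had to pass filterByExpr of edgeR 4.0.16 (R 4.3.3) (minimum count 10, minimum total 15). The 4 groups entered 1 fit with TMM scaling (biological coefficient of variation 0.535), tested by the quasi-likelihood F test with Benjamini-Hochberg adjustment over all tested genes at 0.05. A rise or fall means that this test passed. The SE is the absolute log2 change over the square root of F and is approximate. Levels are CPM on TMM-scaled totals of the tested genes; for Wt1 and other untested genes the totals are those of all genes. Groups are said to lie apart where no library of either overlaps the other group. Alternatives were DESeq2 1.42.0, limma-voom (limma 3.58.1), other scalings and filters, covariates, leaving out gene classes or libraries and thinning to the smallest total. The steps were tested on simulated counts. There, 1 of 67 genes changed 2-fold passed, as did 29 of 67 changed 4-fold and 50 of 66 changed 8-fold. A gene that did not pass may thus still have changed.

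The members, the 37 gene lists and the tests were chosen with earlier results of these data known. Named genes are Wt1, every gene that passed, the members of each list with the smallest p (up to 4 where a member passed and 2 otherwise) and the largest changes without young control 3. Other list members, partners and markers were named after their values were seen. Promoter windows are RefSeq's, in build GRCm38.p6, matched by symbol for 33 of the 45 genes that passed.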

Additional observations from a re-analysis of the deposited data

Results flagged for a closer look

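In 9 genes the het effect (log2 change against control) was not the same in old and young libraries, by edgeR's test of the difference itself (old change minus young change, Benjamini-Hochberg adjusted). For Slbp the difference was 4.678, from 1.63 in old and -3.05 in young (adjusted p = 0.00377). U3 differed by 3.95 (adjusted p = 0.00380), with 0.67 in old and -3.28 in young. For mt-Tq it was 3.914, for Snord49b 3.68, for Cnot3 3.091 and for mt-Tp 2.955, each at an adjusted p of 0.0228. U1, which did not pass in young mice alone, differed by 3.131 and Prkacb by 2.842 (adjusted p = 0.0398 each). In these 8 genes the old change was above 0 and the young change below it. Cebpd went the other way, at -0.79 in old and at least 26.8-fold higher in young het. The fitted value of -10.22 (adjusted p = 0.0228) depends on the prior count, since all 3 young controls had 0 counts. Depth and RNA classes also differ between the young groups, and in the old groups their means lay the other way, with ranges that overlapped. Mean totals were 1703380 in old het and 5224270 in old control. Mean shares were 0.229 and 0.166% for small RNA and 3.64 and 2.07% for mitochondrial rRNA. Old het 1 had Xist at 854 CPM and 0 counts of Ddx3y, which every other old library carried. The part of depth, RNA classes and sex in these differences between the ages was not tested.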

How the results depend on the processing

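The count of 45 genes (19 higher, 26 lower) was 355 by DESeq2 (140 and 215), 23 by limma-voom (2 and 21), 258 with no filter on low counts (124 and 134), 13 with the young libraries alone (2 and 11), 1 with mitochondrial rRNA as a covariate (0 and 1), 23 with Xist as a covariate (12 and 11), 15 without predicted, sex-linked, mitochondrial and small RNA genes (9 and 6), 241 without young control 3 and old control 1 (117 and 124) and 63 with libraries thinned to the smallest total (22 and 41), the last chosen after seeing the data. With a single young library left out it ran from 1 to 157 (0 to 75 higher, 1 to 82 lower). Upper-quartile scaling kept it at 45 with 12 higher and 33 lower, DESeq2 size factors gave 16 higher and 31 lower. The 9 genes that differed between the ages became 296 by DESeq2, 2 by limma-voom, 216 with no filter, 0 with the mitochondrial covariate, 20 with Xist, 4 without the gene classes, 59 without young control 3 and old control 1 and 45 thinned, and 2 to 294 with a single library left out. Where a covariate or left-out library changed a count, the cause was not tested. Single genes turned sign in 2 cases, Prg2 at -0.14 with the mitochondrial covariate and Rag1 at 0.14 with Xist. Of the values of genes that passed, 457 stayed past the threshold and 379 lost it without a change of sign. No paired analysis was possible because the labels give the groups no shared replicate numbers. Depth limits low genes most in young control 2, where 3 counts stand for 4.65 CPM.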

Other observations

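Of 25 tested cytokine and growth factor receptors, 4 had every young het above every young control, beside 9.72% of all tested genes. None lay apart the other way, beside 7.12% of all tested genes. The 4 were Il21r, which passed, and Csf2ra, Ifngr1 and Ifngr2, which did not pass with all libraries. Ifngr2 was at 24.2, 3.75 and 4.60 CPM in young hets and at 0.76, 1.70 and 0 CPM in young controls. These control values are near the floor, since 3 counts stand for 1.87 to 4.65 CPM there. Il6ra (log2 change -1.21) and Il6st (-1.28) had values below 0 and groups that overlapped. Ifngr1, a chain of the interferon gamma receptor, was at 942, 1610.1 and 1214 CPM in young hets and at 410.0, 270.3 and 747 CPM in young controls (log2 change 1.40, adjusted p = 0.139), and it passed without young control 3 (1.88, adjusted p = 0.0453). Csf2ra, the alpha chain of the GM-CSF receptor, was at 23.2, 23.3 and 18.4 CPM in young hets and at 3.80, 3.40 and 0 CPM in young controls (3.23, adjusted p = 0.133).

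Mpo, the peroxidase that leads the primary granule genes by level, was at 5138, 4626 and 4479 CPM in young hets and at 2153, 1552 and 4427 CPM in young controls (0.81, adjusted p = 0.394). Young control 3 was close to the hets in this gene. Itgam ran the other way, at 458, 239 and 144 CPM in young hets and at 1247, 736 and 247 CPM in young controls (-1.41, adjusted p = 0.199). The groups overlapped there.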
